A study of Mus musculus with 9 samples.

Results

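Genes for collagens, laminins, ADAM and ADAMTS proteases, ADAMTS-like proteins, matrix metalloproteinases, fibulins, thrombospondins, glypicans and heparan sulfate sulfotransferases were followed in RING1B ChIP-seq peak lists of Eed+/+ and Eed-/- mouse embryonic stem cells (mESCs). A peak was a member when the gene the authors assigned to it had one of these family prefixes followed by a digit. The rule took 35 of 2347 Eed+/+ peaks and 30 of 1810 Eed-/- peaks, at 37 of the 2328 genes that any peak was assigned to. RING1B is the catalytic subunit of Polycomb repressive complex 1, which places ubiquitin on histone H2A, while EED belongs to the core of Polycomb repressive complex 2, the complex that makes H3K27me3.

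All cells were labelled as C57BL/6 embryonic stem cells, wild type (Eed+/+) or Eed -/-. They were grown on inactivated fibroblast feeders and plated briefly before harvest to remove these, and the feeder chromatin that remained was not measured. The labels list 1 Eed+/+ and 3 Eed-/- RING1B samples, but the 3 are lanes in the study's methods, and only 1 peak list per genotype was analysed here. No value therefore has a replicate error and no test was run: the intervals below are exact (Clopper-Pearson) 95% intervals that cover counting error only. Sequencing of the Eed-/- immunoprecipitate was 4.18 times as deep, and every peak in either list held at least 101 tags. All 3 input samples are labelled wild type, so the fold enrichments and FDRs of the Eed-/- list may rest on input of the other genotype. The peak lists carry no expression values, so neither the cell type nor the loss of Eed could be checked with them.

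The extracellular matrix is a network of collagens, glycoproteins and proteoglycans outside cells. Collagens and laminins build it, ADAMTS proteases and matrix metalloproteinases cut it, ADAM proteases release the outer parts of membrane proteins, and glypicans carry heparan sulfate chains that sulfotransferases modify. Many of these genes are used in mesenchymal and other differentiated cells, and silent developmental genes with CpG-rich promoters are the usual targets of Polycomb complexes in mESCs.

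Members fell into 3 classes by whether peaks of both genotypes shared at least 1 bp at the locus. The base composition under the highest member of each class is shown because CpG-rich sequence was common to nearly all members. Each sequence is the plus strand of mm9 around the peak's point of highest signal (the summit), with annotated exons left out and CG dinucleotides in capitals. The Col19a1 stretch, chr1:24593815-24594114, lies in the first part of the gene under the Eed+/+ peak of highest fold enrichment, and it holds 19 CG dinucleotides in 300 bases. The Col12a1 stretch, chr9:79566639-79566756, is the 118 bases just upstream of the gene under the highest peak found only in Eed+/+, with 9 CG dinucleotides. Its summit, at 79566606, lies in the exon left out, and the full 300 bases around it hold 27 CG dinucleotides. The Gpc5 stretch, chr14:115439564-115439863, is intergenic, lies under the highest peak found only in Eed-/-, and has 38 CG dinucleotides. That peak was assigned to Gpc5 by distance: it lay 50949 bp from the nearest Gpc5 start and 1613 bp from that of Mir17hg.
Col19a1: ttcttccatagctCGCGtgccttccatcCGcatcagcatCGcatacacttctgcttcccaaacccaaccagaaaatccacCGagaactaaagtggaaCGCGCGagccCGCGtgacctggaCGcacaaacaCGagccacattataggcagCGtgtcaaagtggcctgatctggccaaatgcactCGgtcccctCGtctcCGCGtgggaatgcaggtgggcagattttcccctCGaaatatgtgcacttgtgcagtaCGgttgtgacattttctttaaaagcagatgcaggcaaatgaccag
Col12a1: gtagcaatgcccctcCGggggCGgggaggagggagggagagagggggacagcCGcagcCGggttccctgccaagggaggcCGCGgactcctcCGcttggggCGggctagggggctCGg
Gpc5: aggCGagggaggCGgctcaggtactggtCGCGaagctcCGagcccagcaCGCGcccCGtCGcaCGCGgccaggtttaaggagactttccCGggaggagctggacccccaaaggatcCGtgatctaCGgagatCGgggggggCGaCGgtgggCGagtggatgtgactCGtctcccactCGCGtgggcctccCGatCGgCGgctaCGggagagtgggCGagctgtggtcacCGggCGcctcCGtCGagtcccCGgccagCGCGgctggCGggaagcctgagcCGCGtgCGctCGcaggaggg

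At the authors' thresholds most RING1B peaks at these families were shared. Of the 35 Eed+/+ member peaks, 26 were overlapped by an Eed-/- peak (74.3%, interval 56.7 to 87.5%), beside 53.1% of all Eed+/+ peaks. When peaks of both genotypes had to pass an FDR of 1%, the count fell to 8 of 35 (22.9%), beside 15.4% of all Eed+/+ peaks. Of the 30 Eed-/- member peaks, 26 were overlapped by an Eed+/+ peak (86.7%, interval 69.3 to 96.2%), beside 73.1% of all Eed-/- peaks. Nearly all members lay within 1 kb of a start site, where overlap was more common over all peaks as well. Of all peaks so placed, 1090 of 1861 in Eed+/+ and 1114 of 1500 in Eed-/- were overlapped. By gene, 25 were named in both lists, 8 only in Eed+/+ and 4 only in Eed-/-. Over all genes named by a peak, these counts were 1180, 740 and 407. The share overlapped went with the height of the Eed+/+ peak: 14 of 15 members above the list's median fold enrichment were overlapped (66.8% over all such peaks), and 12 of 20 at or below it (39.6%). Members were not high as a group, since their median fold enrichment was 14.01 in Eed+/+ and 4.86 in Eed-/-, beside 16.2 and 4.91 over all peaks.

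**Figure D1:**
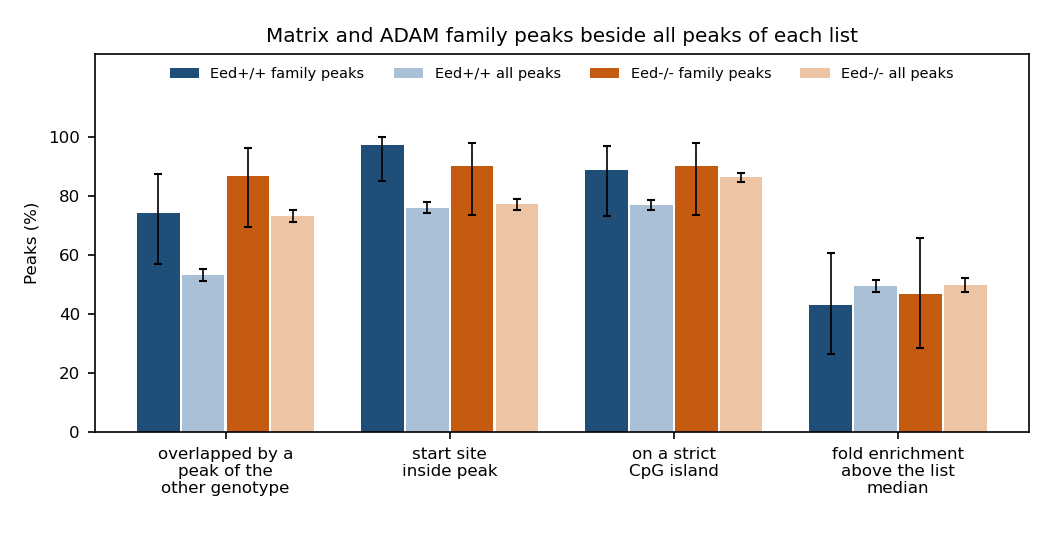
Share of peaks (%) with each property, for family peaks and all peaks of the Eed+/+ and Eed-/- lists; bars start at 0 and error bars are exact 95% binomial intervals (counting error only). Family peaks were overlapped in 74.3% (Eed+/+) and 86.7% (Eed-/-) of cases, beside 53.1% and 73.1% of all peaks, while their shares above the list's median fold enrichment were 42.9% and 46.7%.

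The families differed in how many of their genes had a peak. Of 158 protein-coding genes in the annotation with these names, 37 (23.4%) had a peak in at least 1 list, beside 10.2% of all 22225 coding genes. Heparan sulfate sulfotransferases had peaks at 6 of 10 genes and ADAMTS proteases at 10 of 19. Collagens had them at 11 of 44, a number that includes Col4a3bp, which has a collagen prefix but encodes no collagen. ADAM proteases had peaks at 4 of 32 genes, matrix metalloproteinases at 2 of 23, glypicans at 2 of 6, laminins at 1 of 11 and ADAMTS-like proteins at 1 of 5. None of the 4 fibulin and 4 thrombospondin genes was named by a peak, numbers too small to tell from the 10.2% of all coding genes. Differences between families were not tested. The fibrillar collagen genes Col1a1, Col1a2 and Col3a1, which encode the main collagens of connective tissue, were not named in either list. They were picked after their values were seen, and are too few to tell from the 11 of 44 collagens with a peak. The fibrillar collagen genes Col2a1 and Col27a1 had peaks in both lists. Of the 121 family genes without a member peak, 2 had a start site within 1 kb of a peak assigned to a neighbour: Adamtsl3 at a peak assigned to Sh3gl3 in both lists, and Hs3st4 at an Eed+/+ peak assigned to Zkscan2 that no Eed-/- peak overlapped.

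Most member peaks sat on a start site and a CpG island. An annotated start site lay inside 34 of the 35 Eed+/+ member peaks (97.1%, interval 85.1 to 99.9%), beside 76.0% of all Eed+/+ peaks. In Eed-/- it lay inside 27 of 30 (90.0%, interval 73.5 to 97.9%), beside 77.1%. A start site was within 1 kb of 35 of 35 Eed+/+ and 29 of 30 Eed-/- member peaks, beside 79.3% and 82.9% of all peaks. The summit fell in a coding exon in 15 of 35 Eed+/+ and 7 of 30 Eed-/- members, in an intron in 11 and 10, and in an untranslated exon in 6 and 7. It was intergenic in 2 and 5 and in another exon in 1 and 1, and summit positions were not classed over all peaks. CpG islands lay under 33 of 35 Eed+/+ member peaks (94.3%, interval 80.8 to 99.3%) and 29 of 30 in Eed-/- (96.7%, interval 82.8 to 99.9%), close to the 94.0% and 95.2% of all peaks. The members off islands were Adam33 in both lists and Col14a1 in Eed+/+, where GC content was 58.7%, 57.5% and 53.7%.

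**Figure D2:**
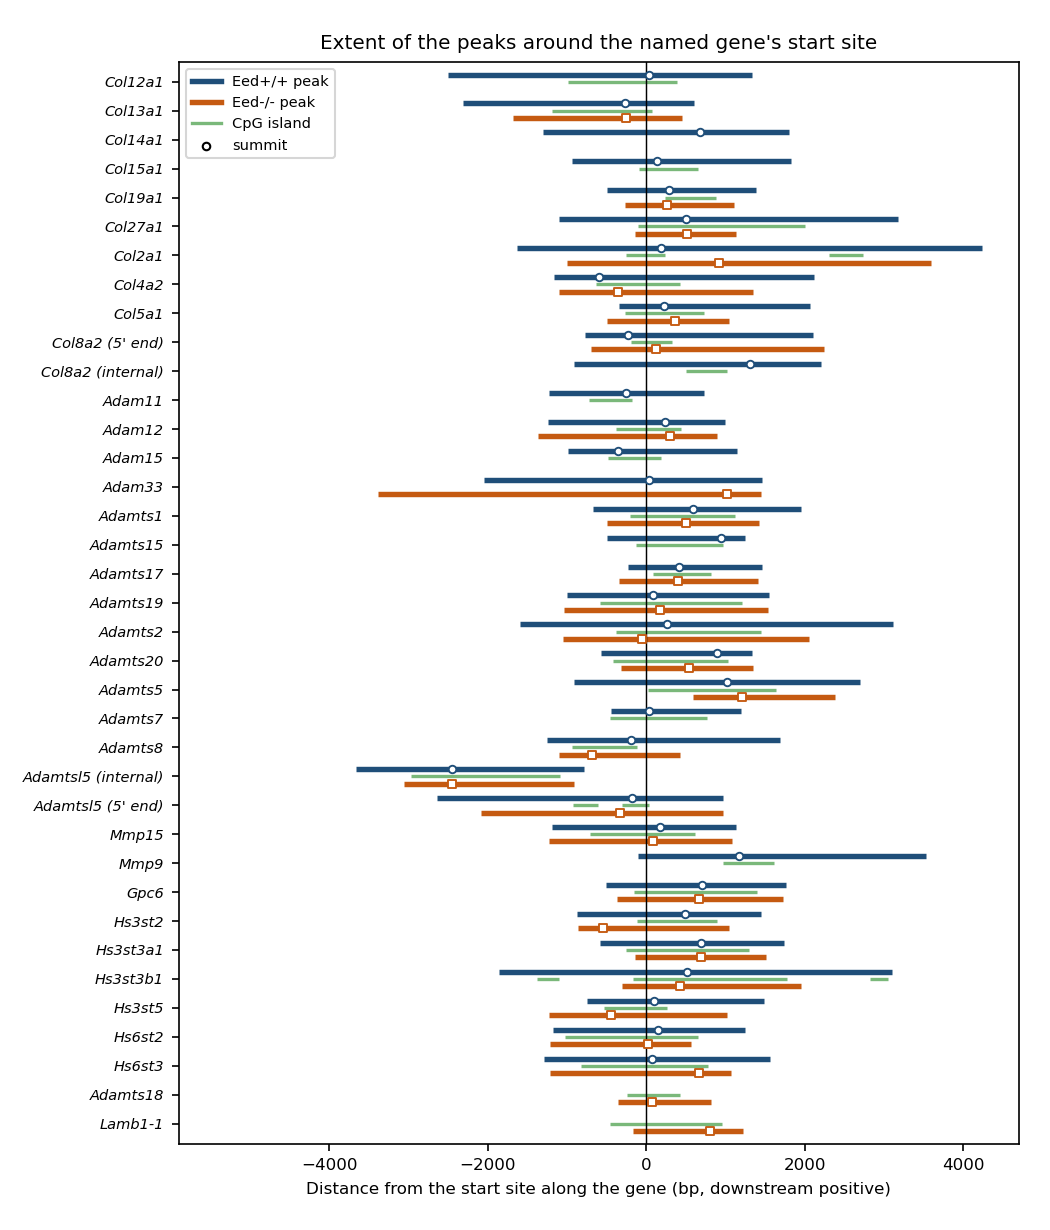
Extent of the member peaks around a start site of the named gene (x axis, bp along the gene, downstream positive), with Eed+/+ peaks in blue, Eed-/- peaks in orange, CpG islands in green and summits as open symbols; both peaks of a pair are drawn from the start nearest the Eed+/+ summit. Start sites or their close surroundings lie under nearly all peaks, and 15 of 26 Eed-/- peaks lie wholly inside their Eed+/+ partner; Col4a1 and Gpc5, over 5 kb from a start of the named gene, are left out.

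Eed-/- member peaks were narrower, with a median width of 2009 bp (quartiles 1601 to 2307) against 2766 bp (2252 to 3398) in Eed+/+. Over all peaks the medians were 2155 and 2665 bp. Within the 26 pairs the Eed-/- peak was narrower in 20 (76.9%, beside 76.2% of all 1247 pairs), and 15 lay wholly inside the Eed+/+ partner (57.7%, beside 57.4%). Summits of a pair were a median of 125.5 bp apart, and 21 of 26 (80.8%) were within 500 bp. Over all pairs the median was 97 bp, and 76.3% were within 500 bp. The 9 Eed+/+ members with no Eed-/- partner had a median of 41.8 CG dinucleotides per kb of peak, against 56.1 in the 26 with a partner, and over all Eed+/+ peaks the medians were 44.0 and 55.1.

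A RING1B level was taken as tags per kb of peak per 1000000 mapped tags, with no input subtracted. Eed+/+ member peaks ranged from 2.65 to 8.73 around a median of 4.86, and Eed-/- member peaks from 0.927 to 1.89 around 1.31. The ranges did not meet on this scaling, whereas over all peaks they did (1.78 to 22.4 in Eed+/+ and 0.849 to 7.01 in Eed-/-). The tag minimum bounds the level a peak of given width needs for listing, and this bound is higher at the lower Eed+/+ depth. All 26 pairs had an Eed-/- to Eed+/+ level ratio under 1, with a median of 0.257 (quartiles 0.220 to 0.346), as did all 1247 pairs of the lists, with a median of 0.225. Ratios of fold enrichment were also under 1 in all 26 member pairs, with a median of 0.282 and a highest of 0.728. Over all pairs their median was 0.248, and the highest was 1.27. Peaks held 4.40% of the mapped Eed+/+ tags and 0.625% of the mapped Eed-/- tags. Scaling levels to the tags in all peaks of a list takes out any change common to the whole list. On that scaling the median ratio was 1.81 over members and 1.58 over all pairs. It was above 1 in 25 of 26 member pairs, beside 1139 of all 1247 pairs (91.3%). Levels below are per 1000000 mapped tags throughout. Depth also bore on the lists: at the Eed+/+ depth the 30 Eed-/- member peaks would hold 26.5 to 110 tags, and 1 of them, at Adam33, would exceed 100, as would 6.63% of all Eed-/- peaks.

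**Figure D3:**
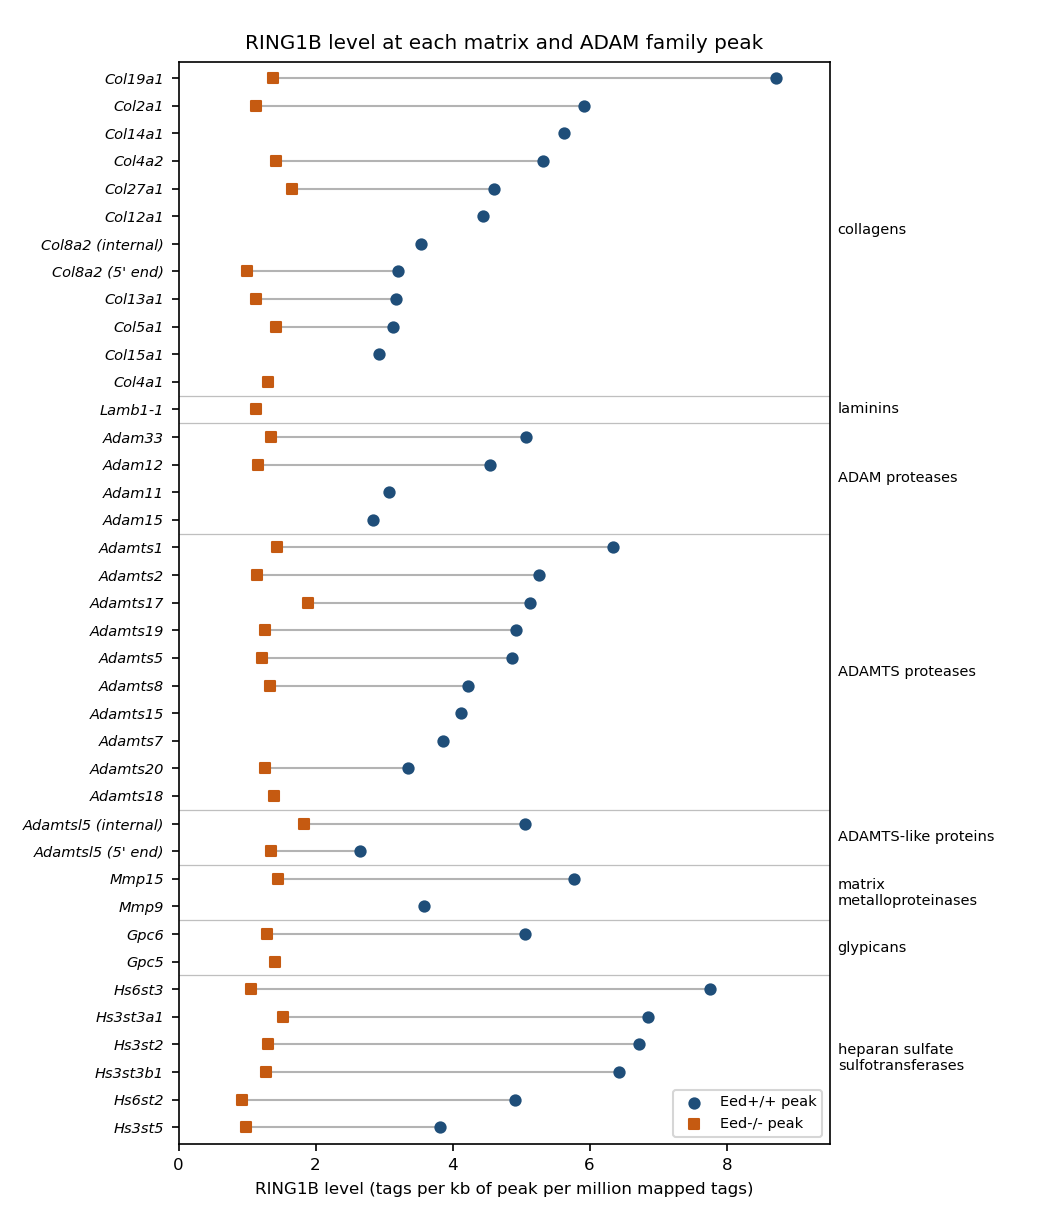
RING1B level (x axis, tags per kb of peak per 1000000 mapped tags) at each member peak, ordered by family, with Eed+/+ as blue circles, Eed-/- as orange squares and lines joining overlapping peaks. Eed+/+ levels spread from 2.65 to 8.73 and Eed-/- levels from 0.927 to 1.89 on this scaling. Scaling to the tags in peaks put 25 of 26 member pairs the other way, beside 91.3% of all pairs.

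Collagens supplied 11 Eed+/+ peaks at 10 genes, of which 7 were overlapped, and 8 Eed-/- peaks at 8 genes. Their median fold enrichment was 13.8 in Eed+/+ and 4.54 in Eed-/-, and the median level ratio over 7 pairs was 0.312. Col19a1, which encodes a collagen of basement membrane zones, had the highest Eed+/+ fold enrichment of all members (47.2, rank 81 of the list). Its Eed+/+ peak (chromosome 1, 24592861 to 24594741) held 276 tags at a level of 8.73, and its Eed-/- peak (24593140 to 24594516) 133 tags at 1.37. Both summits lay in an intron, 16 bp apart and 286 and 270 bp from the nearest start, as the map of peak extents shows. Col27a1, a fibrillar collagen gene of cartilage, had an Eed+/+ peak of 4279 bp (chromosome 4, 62873940 to 62878218) at a level of 4.60, enriched 37.1-fold. The Eed-/- peak there covered 1273 bp around the same summit, to within 5 bp, with 148 tags and a level of 1.65. This pair had the smallest width ratio of the members, 0.297.

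Col2a1, the major fibrillar collagen gene of cartilage, had the widest member peak in Eed+/+ (5874 bp; chromosome 15, 97830823 to 97836696), with 584 tags and a level of 5.91. An Eed-/- peak of 4602 bp lay inside it, at 368 tags and a level of 1.14. Col13a1, which encodes a transmembrane collagen, had an Eed+/+ fold enrichment of 20.5 and levels of 3.18 and 1.13 in Eed+/+ and Eed-/- (chromosome 10, 61440259 to 61443178 in Eed+/+). The other shared collagen loci were Col5a1, Col4a2 and the 5′ end of Col8a2, with Eed+/+ levels of 3.12 to 5.32 and level ratios of 0.456, 0.268 and 0.312. The Col4a2 peak (chromosome 8, 11311645 to 11314928) also covered the start site of Col4a1. Type IV collagen chains of basement membranes are encoded by this pair of genes, which are transcribed in opposite directions from adjacent starts.

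Col12a1, Col14a1, Col15a1 and a second, internal Col8a2 peak were listed in Eed+/+ only. Col12a1 and Col14a1 encode collagens that decorate fibrils, and their peaks had fold enrichments of 19.95 and 13.8, 287 and 294 tags, and levels of 4.44 and 5.63. The Col12a1 peak (chromosome 9, 79565301 to 79569141) had its summit 32 bp from the start site, beside the sequence printed above, and covered an island over 1377 bp. Col14a1 (chromosome 15, 55138004 to 55141110) had no island, and the nearest Eed-/- peak was 5512787 bp away. A peak of 101 tags over the same width in Eed-/-, the fewest tags listed, would amount to 0.0841 of the Col12a1 level and 0.0821 of the Col14a1 level. These levels, 0.374 and 0.462, were under the lowest level of any listed Eed-/- peak (0.849). The FDR limit applied as well, so the tag minimum alone does not give the level needed for listing. Col15a1, which encodes a collagen of basement membrane zones, and the internal Col8a2 peak had levels of 2.92 and 3.54. Col8a2 encodes a network-forming collagen, and its internal peak lay 10718 bp beyond the shared one, over another annotated start.

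Col4a1 was named by an Eed-/- peak only (chromosome 8, 11187272 to 11188854; 145 tags, level 1.30, fold enrichment 4.26, FDR 1.5%). This peak overlapped no coding gene, lay 27947 bp from the closest annotated Col4a1 start, and covered the start of the noncoding transcript Gm15418. Its assignment to Col4a1 thus rested on distance alone.

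Lamb1-1, the older symbol of the laminin beta chain gene Lamb1, was the single laminin in either list, with an Eed-/- peak alone (chromosome 12, 31950103 to 31951491). It held 111 tags at a level of 1.14, a fold enrichment of 4.77 and an FDR of 1.5%, over the start site and 1126 bp of island. At the Eed+/+ depth these would be 26.5 tags, so a peak of this level and width would have missed the tag minimum there. The same held for each of the 4 loci listed in Eed-/- only, where 101 tags in the same width would have required 2.91 to 3.81 times the Eed-/- level.

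ADAM proteases supplied 4 Eed+/+ peaks, at the lowest median fold enrichment of the families with more than 2 Eed+/+ peaks (7.77), and 2 Eed-/- peaks. Adam12, a gene of mesenchymal cells and muscle, had an Eed+/+ peak of 170 tags (chromosome 7, 141415789 to 141418013), enriched 12.05-fold, at a level of 4.54. Its Eed-/- peak was about as wide (2253 against 2225 bp), with 185 tags and a level of 1.17. Adam33 had its pair on internal start sites but off any island, about 9 kb from the first exon by the authors' measure (9487 and 8813 bp). The internal Col8a2 peak, in Eed+/+ only, also covered a start site. By contrast, the internal Adamtsl5 peaks lay 783 (Eed+/+) and 912 bp (Eed-/-) from the nearest start. The Adam33 peak in Eed-/- was also the widest of the Eed-/- members, at 4838 bp and 459 tags against 3511 bp and 299 tags in Eed+/+, and the ratio of levels was 0.266. Adam11, which encodes an ADAM family member without protease activity, and Adam15 were listed in Eed+/+ only, with 101 and 102 tags at levels of 3.07 and 2.85. These were the smallest tag counts among the members of that list, and 101 tags in Eed-/- would equal 0.239 and 0.237 of the levels, close to the median ratio of the pairs. Those levels, 0.734 and 0.673, were also under the lowest level of any listed Eed-/- peak (0.849). The Adam15 peak (chromosome 3, 89152785 to 89154916) also reached into the neighbouring gene Dcst1.

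ADAMTS proteases had 9 Eed+/+ peaks, 7 of them overlapped, and 8 Eed-/- peaks. The median fold enrichment was 14.1 in Eed+/+ and 5.12 in Eed-/-, and the median level ratio was 0.256 over 7 pairs. Adamts1 and Adamts5, which encode proteases that cut aggrecan and versican, are neighbours on chromosome 16, and their Eed+/+ peaks were 94638 bp apart. Adamts1 (85801406 to 85804033) had 280 tags at a level of 6.34 in Eed+/+, enriched 30.5-fold, and 194 tags at 1.44 in Eed-/-. Adamts5 (85898672 to 85902278) had 295 tags at a level of 4.86 in Eed+/+, enriched 22.5-fold, and 154 tags at 1.22 in Eed-/-. The level ratios of these neighbours were 0.227 and 0.251. The Adamts5 Eed-/- peak covered 1795 bp against 3607 bp and no longer reached the start site, which lay 596 bp outside it.

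Adamts2, the gene of a protease that trims the amino end of procollagens, had an Eed+/+ peak of 4706 bp (chromosome 11, 50413994 to 50418699) with 416 tags at a level of 5.26, enriched 30.1-fold. In Eed-/- it had 251 tags over 3109 bp, a level of 1.15 and a ratio of 0.218. Adamts19 had nearly equal widths (2557 and 2565 bp), 212 and 228 tags, and levels of 4.93 and 1.26. Adamts17, Adamts8 and Adamts20 were also shared, with Eed+/+ fold enrichments of 14.1, 12.03 and 9.41. Adamts17 had the highest Eed-/- level of all members, 1.89, and the peaks there were of like width (1683 and 1756 bp).

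Adamts15 and Adamts7 were listed in Eed+/+ only, with 121 and 107 tags, fold enrichments of 8.55 and 10.3, and levels of 4.13 and 3.87. The Adamts15 peak (chromosome 9, 30728793 to 30730536) was 19254 bp from that of its neighbour Adamts8, which was shared and had a similar Eed+/+ level of 4.22. Adamts8 had 209 tags in Eed+/+ and 144 in Eed-/-. Adamts18 was listed in Eed-/- only (chromosome 8, 116371693 to 116372871), with 116 tags, a level of 1.40, a fold enrichment of 7.88 (rank 97 of the Eed-/- list) and an FDR of 0.8%. Its summit was 72 bp from the start site, on an island.

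Adamtsl5, the single ADAMTS-like gene, which encodes a secreted protein without a protease domain, had a pair of peaks in each list on chromosome 10. The peak at the 5′ end (79810191 to 79813798 in Eed+/+) had 161 Eed+/+ tags, the lowest Eed+/+ fold enrichment and level of all members (4.74 and 2.65), and 290 Eed-/- tags at 1.35. Its level ratio, 0.509, was the highest of the members. The internal peak (79803613 to 79806490) had levels of 5.06 and 1.83, a ratio of 0.361, and summits 1 bp apart over an island covered for 1887 bp. No island under either peak met a stricter definition (at least 500 bp, 55% GC and an observed to expected CpG ratio of 0.65).

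Among matrix metalloproteinases, Mmp15, which encodes a membrane-bound enzyme, was shared (chromosome 8, 97875563 to 97877888 in Eed+/+). It had 226 Eed+/+ tags at a level of 5.78, enriched 18.6-fold, beside 237 Eed-/- tags at 1.46, with widths of 2326 and 2313 bp. Mmp9, the gene of gelatinase B, was listed in Eed+/+ only (chromosome 2, 164773619 to 164777253), with 219 tags at a level of 3.58, enriched 6.32-fold. Its summit was 1175 bp into the gene, in a coding exon.

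Glypicans are heparan sulfate proteoglycans held at the cell surface by a lipid anchor. Gpc6 was shared, with an Eed+/+ fold enrichment of 31.4, levels of 5.05 and 1.29, and 193 and 191 tags (chromosome 14, 117324248 to 117326520 in Eed+/+). Gpc5, its neighbour on that chromosome, was named by an Eed-/- peak only (115439367 to 115440488), with 111 tags, a level of 1.41 and an FDR of 0.55%. The fold enrichment there, 8.28, was the highest of the Eed-/- members (rank 78 of the list), and the peak's GC content, 70.2%, was the highest of the members too. It lay 50949 bp from the nearest Gpc5 start and 1613 bp from the start of Mir17hg, the host transcript of a microRNA cluster, so its tie to Gpc5 was one of distance. When Eed-/- members were limited to the 28 whose nearest start site was the named gene's own, which leaves out Gpc5 and Col4a1, 26 (92.9%) were overlapped by an Eed+/+ peak.

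Heparan sulfate sulfotransferases add sulfate at defined positions of the sugar chains and so set which growth factors bind. All 6 of the family's genes named by a peak were shared, with a median Eed+/+ fold enrichment of 26.06, a median Eed-/- fold enrichment of 4.43 and a median level ratio of 0.197. Hs6st3 (chromosome 14, 119536355 to 119539205) had an Eed+/+ fold enrichment of 41.0, 372 tags and a level of 7.76, and 171 Eed-/- tags at 1.06. Its ratio, 0.137, was the lowest of the members. Hs3st4, not a member by the rule, had its start within 1 kb of the Eed+/+ peak assigned to Zkscan2, which had a level of 4.78, a fold enrichment of 17.5 and no Eed-/- partner. Hs6st2 on the X chromosome (49032488 to 49034921) had a fold enrichment of 30.4 and levels of 4.91 and 0.927, the latter the lowest Eed-/- level among the members.

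Hs3st2 (chromosome 7, 128534941 to 128537266) had levels of 6.72 and 1.31, and its summits were 1037 bp apart, the largest shift of the pairs. Hs3st3b1 (chromosome 11, 63732694 to 63737644) had 535 Eed+/+ tags over 4951 bp at a level of 6.43, enriched 25.4-fold. Its Eed-/- peak covered 2255 bp inside that, with 203 tags at 1.28. Hs3st3a1, on the same chromosome, had levels of 6.85 and 1.53 with summits 5 bp apart, and Hs3st5 had levels of 3.81 and 0.989.

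Other matrix genes were read from a list of 134 genes outside the rule. RING1B peaks were assigned to 26 of them in Eed+/+ (19.4%, beside 8.38% of all coding genes) and 18 in Eed-/- (13.4%, beside 6.97%), with 15 in both. Of the 26 Eed+/+ peaks 15 were overlapped (53.1% over all Eed+/+ peaks), and of the 18 Eed-/- peaks 15 (73.1% over all Eed-/- peaks). By group, Eed+/+ peaks were overlapped in 5 of 6 cases at matricellular proteins, 3 of 4 at basement membrane and linker proteins and 2 of 8 at proteoglycan and hyaluronan genes, numbers too small to set the groups apart. None of the 8 protease inhibitor genes, a number at which the 10.2% share of all coding genes with a peak gives less than 1 gene, was named in either list. Among shared genes the highest Eed+/+ fold enrichments were 39.9 at the fibrillin gene Fbn2, 39.5 at the netrin gene Ntn4 and 30.7 at Emilin3. In Eed+/+ only they were 21.4 at Ltbp2, 14.3 at the aggrecan gene Acan and 13.4 at Extl1. In Eed-/- only they were 4.75 at Ltbp4, 4.25 at P4ha2 and 3.82 at the integrin gene Itgb5.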

How the data were processed

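RING1B ChIP-seq tags were mapped by the authors to mm9 with bowtie, which the submitters' processing notes also name, keeping unique positions, and peaks were called with MACS at an FDR under 2% and over 100 tags. Tool versions and the control library for peak calling were not given in the sources used here, and the input samples are all labelled wild type. Each of the 2 deposited lists gives tag counts, fold enrichment (a ratio over background), FDR in percent, a p-value score and the nearest gene by the authors. Mapped tags in the paper, 16814546 (Eed+/+) and 70343706 (Eed-/-), scaled the levels computed here. The authors' flags for overlap were not used, and CBX7 samples were not analysed here.

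Peaks overlapped from 1 bp, and an Eed+/+ peak was paired with whichever Eed-/- peak shared most bases. Start sites and genes came from GENCODE M1 on NCBIM37, the same build. CpG islands were runs with a score of 17 per CG and -1 per other base, of at least 200 bp, 50% GC with observed over expected CpG of 0.6. Older gene symbols were matched through RefSeq names (GRCm38.p6, no coordinates). Both searches were tested on simulated data.

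Every member gene is named, with full values for up to 4 genes of highest fold enrichment per family group and class, and up to 3 per class for other matrix genes. The members, families and lists were chosen with earlier results of these data known, and the 3 collagen genes and 2 neighbours named outside the rule were chosen after their values were seen. Python 3.11.15, numpy 2.4.6, scipy 1.17.1, numba 0.67.0 and matplotlib 3.10.9 were used.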

Additional observations from a re-analysis of the deposited data

How the results depend on the processing

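Of 25 alternative values, 20 stayed within the 95% interval of the reported value (exact binomial for shares, order statistics for medians). The median Eed-/- to Eed+/+ level ratio (0.257) turned to 1.81 when scaled to the tags in all peaks of each list instead of mapped tags. It was 0.218 for tags per peak not divided by width, and 0.282 for fold enrichment. When both lists were held to an FDR of at most 1%, which keeps 10 of 30 Eed-/- members and all 35 Eed+/+ members, the share of Eed+/+ members overlapped was 22.9% in place of 74.3%. With at least 200 tags in the member peak, the share of Eed-/- members overlapped was 100% (11 of 11) in place of 86.7%. Counting start sites within 5 kb in place of 1 kb gave 100% of Eed-/- members in place of 96.7%. Limiting peaks to those closest to a start of the named gene, an alternative chosen after seeing the data, gave 74.3% and 92.9% overlapped in Eed+/+ and Eed-/-. The alternative at the Eed+/+ depth kept 1 pair. No paired analysis was possible because the result comes from no test, with 1 peak list per genotype. A peak absent from a list may lie under its tag or FDR limit, and this was not detectable from the lists.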
